A study of Mus musculus with 16 samples.

Results

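Ear tissue of ageing mice was examined for 10 genes of extracellular proteolysis, 6 matrix metalloproteinases (Mmp2, Mmp3, Mmp9, Mmp13, Mmp14 and Mmp19) and 4 tissue inhibitors of metalloproteinases (Timp1, Timp2, Timp3 and Timp4). They were chosen by name among the 45706 genes of the deposited count table, and all 10 passed the filter on low counts that left 21526 genes for testing. The samples came from 8 male C57BL/6J mice, each biopsied at 24 months (23.8 to 24.4) and again at 30 months (29.0 to 30.1), which gave 16 libraries, 8 per age. The labels call the earlier biopsy young and the later one old, although both were taken late in life, and no mouse carried an allele or received an agent according to the labels. The first biopsy was a punch of 1 ear and the second a punch of the other ear, so the ear side and the calendar time of sampling changed together with age and cannot be told apart from it.

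Matrix metalloproteinases are zinc-dependent endopeptidases that are made as inactive proenzymes and, once their propeptide is cleaved, cut collagens, proteoglycans, cytokines and other proteases. Mmp2 and Mmp9 are the gelatinases, which degrade denatured collagen and basement membrane, Mmp3 is a stromelysin, which also activates other proenzymes, Mmp13 is a collagenase that cuts fibrillar collagen, and Mmp14 is anchored in the cell membrane. The TIMPs bind the active site of these enzymes and block it, and Timp2 has a further role as the bridge by which Mmp14 captures and activates the Mmp2 proenzyme. In skin this system is known for its work in wound closure, hair cycling and the slow turnover of dermal collagen, and in the ear also for cartilage.

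Library depth was similar at the ages, with 27494852 to 35527197 counts on genes at 24 months (median 28877001) and 22967222 to 36162431 at 30 months (median 29138399). The tissue label held up against its markers, since Krt10, a keratin of the upper epidermis, reached 11380 ± 1402 CPM (SD, n = 8), that is, read counts scaled by the effective library size, at 24 months, and markers of cartilage and skeletal muscle, both part of the ear, were also present. Mouse 50 stood apart at 30 months, where the mean log2 change of 11 T cell markers was 2.72, that of 11 macrophage markers 1.92 and that of 15 fibroblast markers 1.24. The summed CPM of the T cell markers ranged from 47.3 to 61.8 at 24 months and from 37.2 to 254 at 30 months. Several fold changes and list counts are therefore given with and without this mouse. Values given only once, such as those of single genes in the other lists, may also depend on it. These are whole biopsies, in which fewer cells of a type and less RNA per cell cannot be told apart.

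None of the 10 genes passed an adjusted p of 0.05 in the quasi-likelihood test of edgeR, fitted with each mouse as its own block, and neither did any other gene (0 of 21526, 0.0%). At an unadjusted p under 0.05, 1 of the 10 was lower at 30 months (Mmp9) and 0 were higher, against 7.18% and 4.86% of all genes tested. The DESeq2 Wald test on the same counts called 240 genes at an adjusted p of 0.05, of which 1 was among the 10 (Mmp9). Of the 10 log2 fold changes 7 were above 0 and 3 below, with a median of 0.05, beside a median of 0.01 over all genes tested, of which 11122 were above 0 and 10404 below. Without mouse 50 the median of the 10 genes was -0.05, with 4 above 0. The share of genes that were lower in 8 of 8 mice was 1.69%, and 1 of the 10 genes, Mmp9, did this. No gene of the 10 was higher in 8 of 8 mice, as 1.08% of all genes were, and none had ages without overlap, as 0.195% had.

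**Figure D1:**
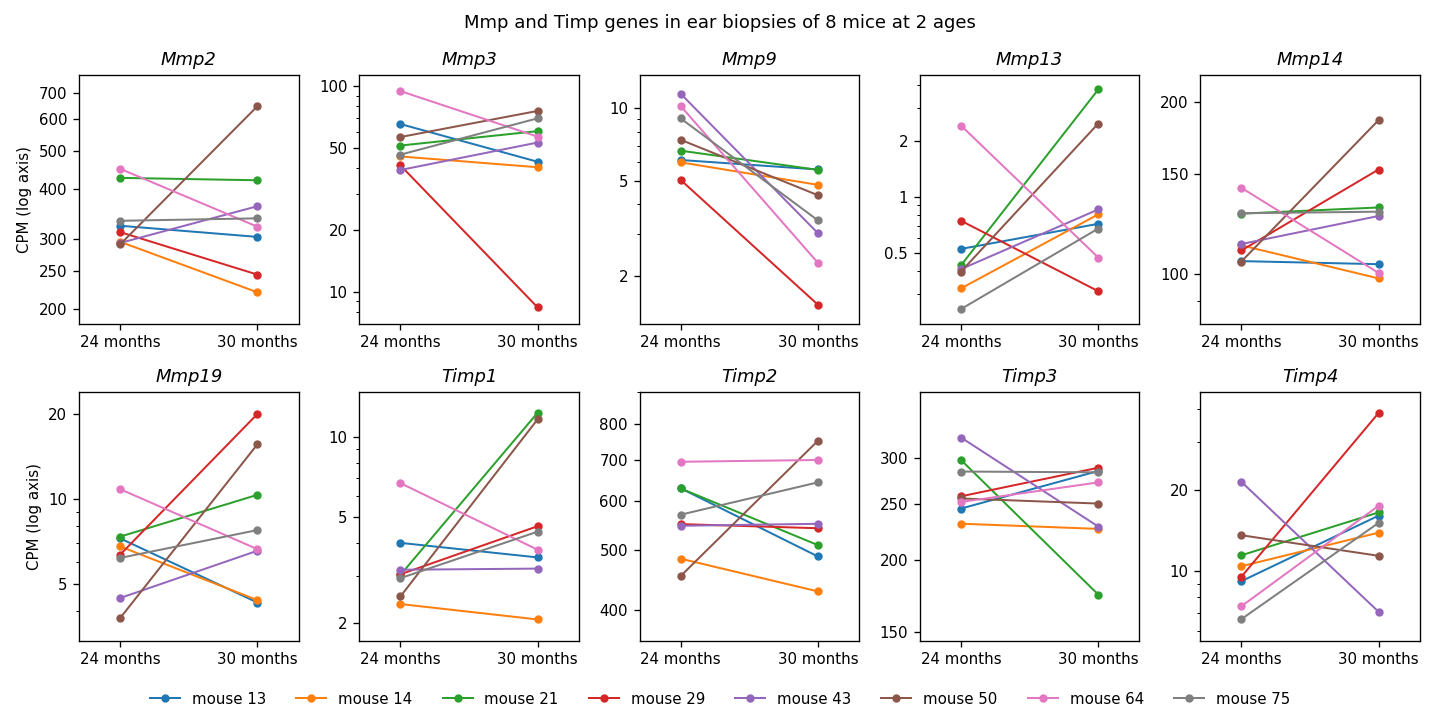
CPM on a log axis of the 6 Mmp and 4 Timp genes at 24 and 30 months, with a line for each of the 8 mice and its own scale in each panel. The 8 lines of Mmp9 all run downward, whereas every other panel holds lines in both directions, with mouse 29 far below the others for Mmp3 at 30 months and mouse 50 above the others for Mmp2, Mmp14 and Timp2.

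The levels of the 10 genes spanned a wide range when expressed per exon length as RPKM (CPM divided by the exon length in kilobases). Timp2 stood highest with a median of 141 RPKM over the 16 libraries (110.1 to 193), followed by Mmp2 with 95.9 (65.4 to 192). The RPKM values of these neighbours overlapped, while those of Mmp2 did not overlap the next gene. Timp3 (31.5, 21.4 to 39.9), Mmp3 (29.1, 4.67 to 52.6) and Mmp14 (20.1, 16.5 to 31.2) formed a middle tier of RPKM in which neighbours overlapped. The values of Mmp14 did not overlap those of Timp1, the next gene (3.79 RPKM, 2.32 to 13.9). Timp4 (2.12 RPKM), Mmp19 (1.90) and Mmp9 (1.57) followed, again with overlap between neighbours. Mmp13 was lowest, with a median of 0.224 RPKM (0.0930 to 1.42) and only 7 to 89 reads per library. The most abundant inhibitor, the proenzyme that it helps to activate and the membrane protease that does so were thus all among the upper 5 genes in these ears.

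**Figure D2:**
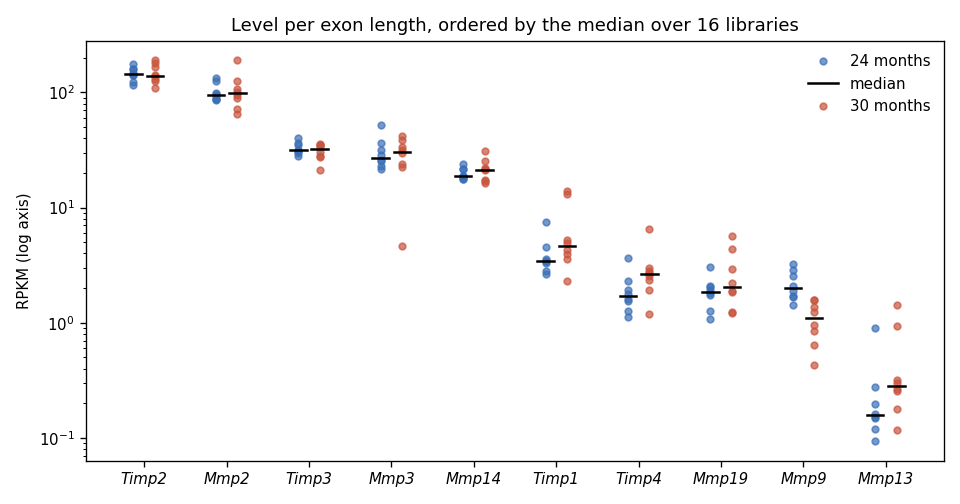
RPKM on a log axis in the 16 libraries, 8 per age, with the median of each age as a black bar and genes ordered by the median over all libraries. Timp2 and Mmp2 lie highest and Mmp13 lowest, and at each gene the points of the ages overlap.

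Mmp9, the gelatinase made by keratinocytes, Langerhans cells and several kinds of leukocyte, lies on chromosome 2 (ENSMUSG00000017737, GRCm38 chr2:164940780-164955850, plus strand). At 24 months its level ran from 5.03 to 11.5 CPM with a median of 7.04, and at 30 months from 1.52 to 5.57 CPM with a median of 3.88. The ages overlapped in a narrow band, as 7 of the 8 libraries at 24 months lay above the highest at 30 months and 6 of the 8 libraries at 30 months lay below the lowest at 24 months. Within the mice the level at 30 months was 0.913 of that at 24 months in mouse 13, 0.832 in mouse 21, 0.805 in mouse 14, 0.587 in mouse 50, 0.375 in mouse 75, 0.302 in mouse 29, 0.262 in mouse 43 and 0.222 in mouse 64. The measured level was thus lower at the later age in all 8 mice, but the size ranged from a small difference in mice 13, 14 and 21 to a large one in mice 29, 43, 64 and 75. The small differences rested on 186 and then 202 reads in mouse 13, 167 and 149 in mouse 14, and 187 and 130 in mouse 21, before scaling by library size. The mean was 7.75 ± 2.29 CPM at 24 months and 3.81 ± 1.502 at 30 months (SD, n = 8), a log2 fold change of -1.07 ± 0.26 (SE). Its edgeR p was 0.00171, which ranked 160 among all genes tested and did not hold after Benjamini-Hochberg adjustment (0.222). The exact two-sided sign-flip test of its 8 within-mouse changes alone gave p = 0.00781, the smallest that 8 mice allow, and the DESeq2 Wald test gave an adjusted p of 0.0069. Over 14 fits with edgeR or DESeq2, the main one included, the log2 fold change lay between -1.20 and -0.92 and the adjusted p between 0.0069 and 0.513. The gene rested on 44 to 367 reads per library.

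Marker genes of cell types that make Mmp9 are given beside it. Of all genes tested, 51.7% had a log2 fold change above 0. At an unadjusted p under 0.05, 4.86% of them were higher and 7.18% lower. Of the 7 tested neutrophil markers 5 had positive log2 fold changes, with 1 higher and 0 lower at an unadjusted p under 0.05. Their summed CPM ranged from 9.43 to 65.4 at 24 months and from 11.2 to 48.03 at 30 months. Without mouse 50, 4 of the 7 were positive and the sum at 30 months was 11.2 to 34.7. Macrophage markers had 10 of 11 above 0 (8 of 11 without mouse 50), with 0 higher and 0 lower at an unadjusted p under 0.05. Their summed CPM was 689 to 1190.0 and then 588 to 2317, or 588 to 1344 without mouse 50. The langerin gene Cd207, which marks Langerhans cells and was added after its values were seen, had 15.6 ± 2.79 CPM at 24 months and 10.8 ± 4.03 at 30 months (SD, n = 8). It was lower in 7 of 8 mice and its log2 fold change was -0.61 ± 0.18 (SE; edgeR adjusted p = 0.279), and its part in the Mmp9 values was not tested. Over all 8 mice, keratinocyte markers had more negative than positive log2 fold changes, with 3 of 9 markers of differentiated cells above 0 (median -0.21, 1 higher and 2 lower at an unadjusted p under 0.05) and 2 of 8 basal markers above 0 (median -0.09, 0 higher and 1 lower). Without mouse 50, 4 of 8 basal markers were above 0 (median -0.02, 1 higher and 1 lower). Of the differentiated markers 3 of 9 were then above 0 (median -0.23, 1 higher and 1 lower). The desmoglein Dsg1a was lower in 8 of 8 mice (-0.46 ± 0.13, edgeR adjusted p = 0.279), Krt10 in 6 of 8 (-0.36 ± 0.14, adjusted p = 0.346) and the basal regulator Trp63 in 7 of 8 (-0.26 ± 0.09, adjusted p = 0.316), while Krt1 was higher in 8 of 8 (1.01 ± 0.25, adjusted p = 0.222). Summed CPM ranged from 28670.0 to 40240.0 and then from 21640.0 to 40780.0 for the differentiated and from 11840.0 to 15310.0 and then from 8874 to 17670.0 for the basal markers, or from 9840 to 17670.0 without mouse 50. The part of these keratinocyte markers in the Mmp9 values was not tested.

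The other gelatinase, Mmp2, is a product of fibroblasts (ENSMUSG00000031740, chr8:92827291-92853420, plus strand). Its level was 291 to 451 CPM at 24 months (median 318) and 220.4 to 648 CPM at 30 months (median 330.3). The values at 30 months enclosed those at 24 months, with mouse 50 above them at 648 CPM and mice 14 and 29 below them at 220.4 and 244 CPM. Mouse 50 had 2.23 times its level at 24 months, while mouse 64 had 0.715 and mouse 14 had 0.747 of theirs. With means of 341 ± 62.8 and 358 ± 133 CPM (SD, n = 8), the log2 fold change was 0.01 ± 0.16 (SE; edgeR adjusted p = 0.989), and 3 mice were higher and 5 lower. Without mouse 50 it was -0.15. The fibroblast markers of that mouse had a mean log2 change of 1.24, and over all mice 0 of 15 of them had an unadjusted p under 0.05, with summed CPM of 4464 to 8304 at 24 months and 2896 to 14990.0 at 30 months. Without mouse 50, 7 of the 15 were lower at an unadjusted p under 0.05, beside 7.12% of all genes, and the sum at 30 months was 2896 to 6030.0. Their part in the Mmp2 values was not tested. The gelatinases therefore had unlike within-mouse changes, with 0 of 8 mice higher for Mmp9 and 3 of 8 for Mmp2.

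Mmp3, the stromelysin (ENSMUSG00000043613), and Mmp13, the collagenase (ENSMUSG00000050578), lie in the same gene cluster on chromosome 9, where 10 Mmp genes occupy 427 kb (chr9:7272514-7699585). Of these 10 genes 6 were abundant enough to be tested. RefSeq start sites on GRCm38.p6 were at hand for 7 of the 10 genes studied, and the 250 bases before each start were searched on both strands for the AP-1 motif TGAGTCA, whose reverse complement is TGACTCA, and for TATAAA. AP-1 is the Fos and Jun dimer through which growth factors and cytokines are known to induce several metalloproteinase genes. Of the 7 windows 2 held the AP-1 motif and the same 2 held TATAAA, those of Mmp3 and Mmp13, while 4.46% of 32851 promoter windows of the same length held the AP-1 motif and 12.4% held TATAAA. In Mmp3 the AP-1 motif began 46 bases before the start and TATAAA began 7 bases before it, and in Mmp13 they began 35 and 16 bases before it, with no overlap between the motifs. The windows of these cluster genes are printed because their changes are compared here, and that of Timp1 as an inhibitor without either motif, with both motifs in capitals.
Mmp3, chr9:7445572-7445821, plus strand: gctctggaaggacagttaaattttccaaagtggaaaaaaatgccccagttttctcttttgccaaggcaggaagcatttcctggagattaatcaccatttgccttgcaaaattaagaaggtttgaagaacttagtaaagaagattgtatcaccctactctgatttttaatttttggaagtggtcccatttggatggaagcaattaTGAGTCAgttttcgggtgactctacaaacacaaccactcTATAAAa
Mmp13, chr9:7272264-7272513, plus strand: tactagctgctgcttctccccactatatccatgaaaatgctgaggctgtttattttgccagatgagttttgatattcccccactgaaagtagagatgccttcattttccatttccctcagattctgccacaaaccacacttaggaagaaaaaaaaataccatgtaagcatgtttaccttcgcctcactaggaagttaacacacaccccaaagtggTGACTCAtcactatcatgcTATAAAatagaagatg
Timp1, chrX:20869916-20870165, plus strand: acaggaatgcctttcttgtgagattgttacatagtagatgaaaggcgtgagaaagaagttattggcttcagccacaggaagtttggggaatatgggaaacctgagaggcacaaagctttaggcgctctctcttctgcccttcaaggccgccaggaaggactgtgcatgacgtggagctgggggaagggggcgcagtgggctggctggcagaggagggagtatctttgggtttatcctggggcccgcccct
A match of letters is a description of the sequence and not evidence of binding in these ears.

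Mmp3 ranged from 39.2 to 94.8 CPM at 24 months with a median of 49.0, and from 8.41 to 75.9 CPM at 30 months with a median of 55.1. The ages overlapped broadly apart from mouse 29, whose level at 30 months, from 244 reads, was 0.204 of that at 24 months. The means were 55.1 ± 18.1 and 51.0 ± 21.04 CPM (SD, n = 8), with 4 mice higher and 4 lower. The log2 fold change of -0.23 ± 0.28 (SE; edgeR adjusted p = 0.755) turned to 0.03 without mouse 29. In that mouse the fibroblast markers also had a mean log2 change of -1.05 and the cartilage markers one of -1.33. The pigment cell markers had -2.30 and the hair follicle markers -1.53. Other lists went up in the same mouse, with 1.27 for endothelial, 1.19 for neutrophil, 1.004 for red blood cell and 0.99 for fat cell markers. The remaining marker lists lay between -0.452 (T cell) and 0.661 (mast cell). The part of these lists in the Mmp3 value was not tested.

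Mmp13 had 0.249 to 2.43 CPM at 24 months (median 0.418) and 0.310 to 3.80 CPM at 30 months (median 0.761). At the earlier age mouse 64 stood above the rest, and at the later age mice 21 and 50 did. The within-mouse ratios reached 8.87 in mouse 21 and 6.29 in mouse 50 and came to 0.194 in mouse 64, so that 6 mice were higher and 2 lower. The mean went from 0.687 ± 0.718 to 1.26 ± 1.22 CPM (SD, n = 8). Its log2 fold change of 0.86 ± 0.58 (SE; edgeR adjusted p = 0.565) was the largest positive value of the 10 genes and also carried the largest error, and it came to 0.50 without mouse 21, 0.55 without mouse 50 and 1.33 without mouse 64. Markers of hypertrophic cartilage and bone, tissues in which Mmp13 is known to be strong, had positive log2 fold changes in 8 of 10 genes, with 0 of 10 at an unadjusted p under 0.05 and summed CPM of 22.8 to 35.5 and then 26.2 to 39.9, and their part in the Mmp13 values was not tested.

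Mmp14, the membrane protease that activates the Mmp2 proenzyme (ENSMUSG00000000957, chr14:54431612-54445364, plus strand), was among the steadier genes. It had 105 to 142 CPM at 24 months (median 113) and 98.4 to 186 CPM at 30 months (median 128). The spread widened at the later age, where mice 50 and 29 stood highest at 186 and 152 CPM. Its means of 118 ± 13.1 and 128 ± 29.7 CPM (SD, n = 8) gave a log2 fold change of 0.10 ± 0.12 (SE; edgeR adjusted p = 0.760), or -0.003 without mouse 50, with 5 mice higher and 3 lower.

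Mmp19, a protease of basement membrane components that is expressed in epidermis and connective tissue (ENSMUSG00000025355, chr10:128790910-128800824, plus strand), had 3.79 to 10.8 CPM at 24 months (median 6.56) and 4.30 to 19.9 CPM at 30 months (median 7.19). Only mice 29 and 50 lay above the highest value at 24 months, with ratios of 3.14 and 4.11 within the mouse. The means were 6.62 ± 2.12 and 9.43 ± 5.60 CPM (SD, n = 8), with 5 mice higher and 3 lower and a log2 fold change of 0.37 ± 0.33 (SE; edgeR adjusted p = 0.662), or 0.13 without mouse 50 and 0.18 without mouse 29. Exons of Tmem198b on the opposite strand cover 22.3% of the exon bases of Mmp19 (789 bases) and Tmem198b had 13.2 CPM on average, so without strand in the counting the reads of this region cannot be told apart.

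**Figure D3:**
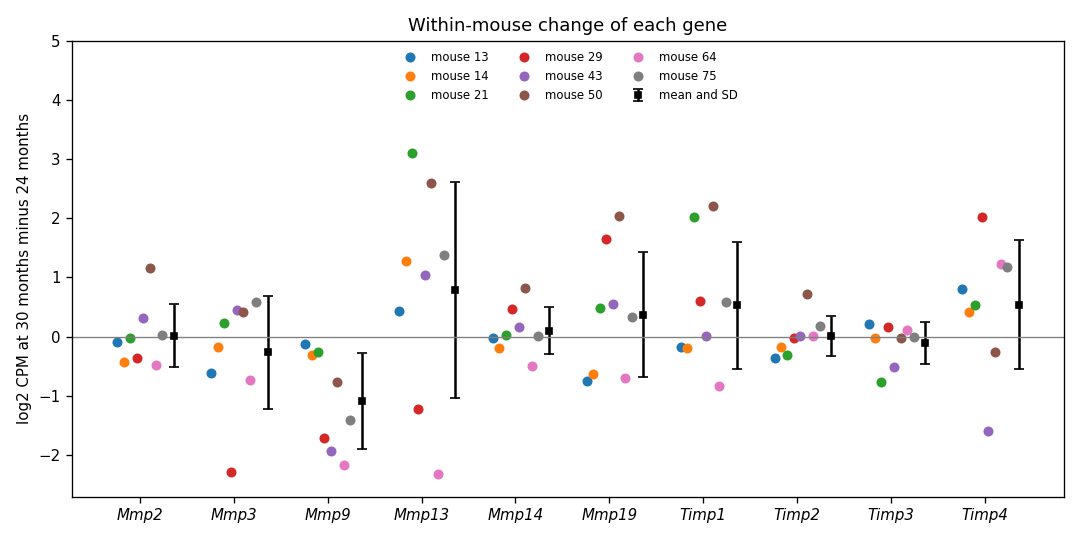
Change in log2 CPM from 24 to 30 months for each of the 10 genes, with a point per mouse (n = 8) and the mean with its SD as a black square and bar. The 8 points of Mmp9 lie below 0, Mmp13 has the widest spread (SD 1.82) and Timp2 the narrowest (SD 0.34).

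Timp1, the inhibitor that is induced by cytokines and pairs with the Mmp9 proenzyme (ENSMUSG00000001131, chrX:20870166-20874735, plus strand), had 2.36 to 6.70 CPM at 24 months (median 3.04) and 2.06 to 12.3 CPM at 30 months (median 4.09). Mice 21 and 50 alone exceeded the highest level at 24 months, with 4.07 and 4.63 times their earlier level, and these were the mice with the largest within-mouse ratios of Mmp13. The means were 3.47 ± 1.40 and 5.70 ± 3.97 CPM (SD, n = 8), and the log2 fold change was 0.52 ± 0.34 (SE; edgeR adjusted p = 0.547), with 5 mice higher and 3 lower. Leaving out mouse 50 brought it to 0.28 and leaving out mouse 21 to 0.31. Timp1 lies inside Syn1 on the opposite strand with 0 shared exon bases.

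Timp2, the most abundant inhibitor here (ENSMUSG00000017466, chr11:118301069-118355740, minus strand), ranged from 454 to 694 CPM at 24 months (median 561) and from 429 to 751 CPM at 30 months (median 547). Its levels at the ages overlapped throughout and 4 mice were higher and 4 lower. The means were 569.9 ± 79.2 and 577 ± 110.5 CPM (SD, n = 8), a log2 fold change of 0.005 ± 0.112 (SE; edgeR adjusted p = 0.990), or -0.10 without mouse 50.

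Timp3, which is held in the extracellular matrix and also blocks ADAM proteases (ENSMUSG00000020044, chr10:86300372-86349506, plus strand), had 231 to 325 CPM at 24 months (median 256) and 174 to 288 CPM at 30 months (median 261). The lowest library was that of mouse 21 at 30 months, at 0.586 of its earlier level, and mouse 43 came to 0.702. With 268 ± 31.2 and 251 ± 39.7 CPM (SD, n = 8), 3 mice higher and 5 lower, the log2 fold change was -0.11 ± 0.11 (SE; edgeR adjusted p = 0.717) and -0.003 without mouse 21. The gene lies inside Syn3 on the opposite strand, whose exons cover 21.3% of its exon bases (1733 bases), and Syn3 had 1.26 CPM.

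Timp4, known as the inhibitor of heart and fat tissue (ENSMUSG00000030317, chr6:115241892-115252205, minus strand), had 6.64 to 21.4 CPM at 24 months (median 9.98) and 7.07 to 38.6 CPM at 30 months (median 15.6). Mouse 43 was the highest at 24 months and the lowest at 30 months, at 0.330 of its earlier level, and mouse 29 was the highest at 30 months, at 4.05 times its earlier level. The means were 11.2 ± 4.68 and 17.01 ± 9.33 CPM (SD, n = 8), with 6 mice higher and 2 lower, and the log2 fold change was 0.57 ± 0.33 (SE; edgeR adjusted p = 0.517). Without mouse 43 it was 0.85, with an unadjusted p of 0.0045 and an adjusted p of 0.158, and without mouse 29 it was 0.36, with an adjusted p of 0.700. The fat cell markers had mean log2 changes of -1.25 in mouse 43 and 0.99 in mouse 29, 6 of 8 of them had positive log2 fold changes, 1 had an unadjusted p under 0.05 (Plin4), and their summed CPM ranged from 226 to 434 and then from 207 to 1059. Skeletal muscle markers changed by -3.51 in mouse 43 and 0.05 in mouse 29. The part of either tissue in the Timp4 values was not tested.

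The SD of the within-mouse log2 changes had a median of 0.34 over all genes tested. Timp2 (0.34), Timp3 (0.35), Mmp14 (0.40) and Mmp2 (0.53), which are abundant, lay nearest to that value. Mmp9 (0.82), Mmp3 (0.96), Mmp19 (1.06), Timp1 (1.08), Timp4 (1.09) and Mmp13 (1.82) had larger SDs.

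Ratios of an enzyme to its inhibitor were taken in each library as a description, with no test. The ratio of Mmp9 to Timp1 in CPM had a median of 2.37 at 24 months (1.52 to 3.63) and of 0.688 at 30 months (0.328 to 2.33), and was lower at the later age in 7 of 8 mice, with mouse 13 as the exception (1.52 and 1.58). That of Mmp2 to Timp2 was 0.597 and 0.574, lower in 4 of 8 mice. For Mmp14 to Timp2 it was 0.205 and 0.229, lower in 3 of 8, and for Mmp3 to Timp1 16.1 and 13.6, lower in 4 of 8. The ratio of Mmp13 to Timp1 was 0.139 and 0.208 and was lower in 2 of 8 mice. Such a ratio counts transcripts and not active enzyme.

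Next, the question was whether genes that act on each other changed together in the same mice. For 7 pairs taken from textbook biochemistry, the within-mouse log2 changes were correlated over the 8 mice and tested exactly, two-sided, against all 40320 orders in which the mice can be permuted. None of the 7 passed after adjustment over the pairs. Each r was taken again without the 2 mice farthest from the median change of the first gene named, which removes the widest points and so depends on the order of the genes. Mmp14 with Mmp2 had r = 0.766 (exact permutation p = 0.032, adjusted 0.125) and rho = 0.738 (exact permutation p = 0.0458), but r was 0.03 without mice 50 and 64. Timp2 with Mmp2 had r = 0.758 (exact permutation p = 0.0537, adjusted 0.125) and rho = 0.548 (exact permutation p = 0.171), and r was 0.16 without mice 13 and 50 and 0.237 without mice 50 and 64, the mice set by Mmp2. For Timp2 with Mmp14, r = 0.635 (exact permutation p = 0.0977, adjusted 0.171) and rho = 0.429 (exact permutation p = 0.299), and r was 0.04 without mice 13 and 50 and 0.33 without mice 50 and 64, the mice set by Mmp14. Without mouse 50 alone, r was 0.395 for Mmp14 with Mmp2, 0.071 for Timp2 with Mmp2 and 0.043 for Timp2 with Mmp14. Mmp3 with Mmp13, which lie in the same cluster with Mmp12 and Mmp1b between them, had r = 0.721 (exact permutation p = 0.04, adjusted 0.125) and rho = 0.69 (exact permutation p = 0.0694), and r was 0.489 without mice 29 and 64 (exact permutation p = 0.310). The remaining pairs had r = 0.383 for Timp1 with Mmp9, 0.236 for Mmp3 with Mmp9 and 0.417 for Mmp14 with Mmp13, with rho of 0.238, 0.048 and 0.381 and exact permutation p for r of 0.344, 0.634 and 0.302 (adjusted 0.402, 0.634 and 0.402). For these r was -0.002 without mice 21 and 50, -0.734 without mice 29 and 64 and -0.639 without mice 50 and 64. With the second gene as the guide, Timp1 with Mmp9 had r = 0.422 without mice 13 and 64 and Mmp14 with Mmp13 had r = 0.467 without mice 29 and 64. For Mmp3 with Mmp9 that choice was not computed. The r of -0.734 for this pair had an exact permutation p of 0.0847 over 6 mice, and r was -0.065 without mouse 29 alone.

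Over all 45 pairs of the 10 genes, singled out after its value was seen, Mmp14 with Mmp19 had r = 0.922 (exact permutation p = 0.000446, adjusted over the 45 pairs 0.0201) and rho = 0.929 (exact permutation p = 0.00223, adjusted 0.100). Without mice 50 and 64, the mice set by Mmp14, r was 0.906 (exact permutation p = 0.00833), and omitting single mice kept it between 0.868 and 0.971. With Mmp19 as the guide, mice 29 and 50 would be left out, and that r was not computed. Mice 50 and 29 had the largest increases of both genes, and mouse 64 had the largest decrease of Mmp14. Mmp13 with Timp1 had r = 0.754 (exact permutation p = 0.0321, adjusted 0.292) and rho = 0.667, and r was 0.939 without mice 29 and 64, the mice set by Mmp13. That choice kept mice 21 and 50, which had the largest increases of both genes. Their log2 changes were 3.099 and 2.602 for Mmp13 and 2.018 and 2.205 for Timp1. The r without mice 21 and 50 was not computed. The changes of any pair share the same libraries and scaling factors.

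**Figure D4:**
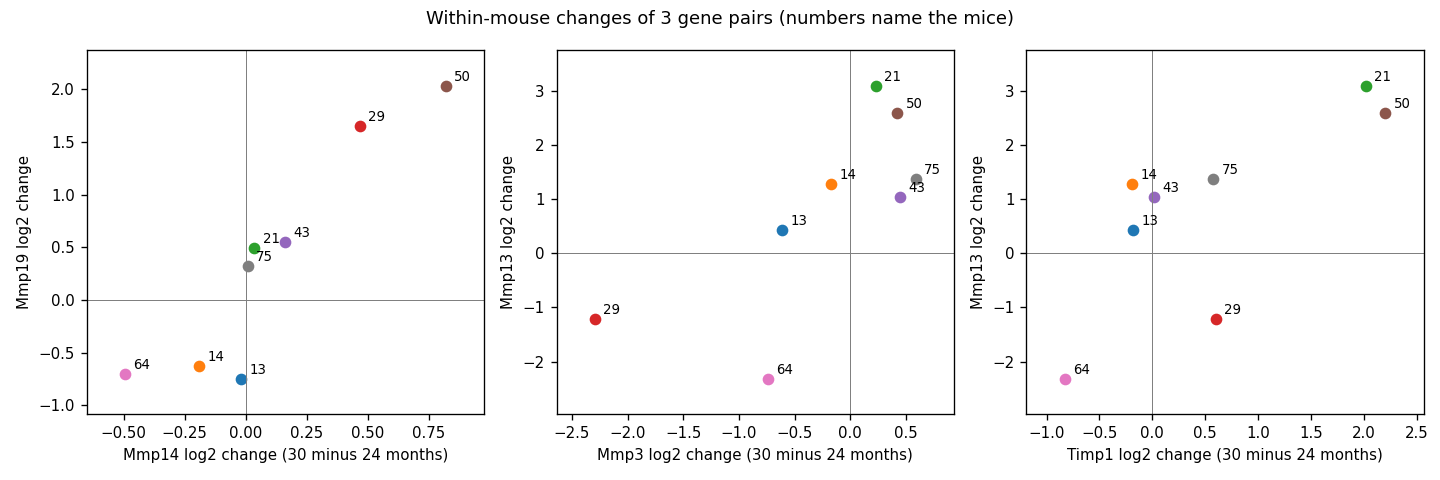
Within-mouse log2 CPM changes (30 minus 24 months) of Mmp19 against Mmp14, Mmp13 against Mmp3 and Mmp13 against Timp1, with a numbered point per mouse (n = 8). Mmp14 and Mmp19 order the mice almost alike (rho 0.929), while mice 29 and 64 are the only ones with a lower Mmp13 at 30 months.

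Of the 17 other Mmp genes 11 were tested, with a median log2 fold change of -0.01, and 1 of the 11, Mmp15, was lower at an unadjusted p under 0.05, as were 7.18% of all genes. Mmp15, like Mmp14 a membrane-anchored protease, had 17.9 ± 2.17 CPM at 24 months and 12.9 ± 2.66 at 30 months (SD, n = 8), was lower in 7 of 8 mice and had a log2 fold change of -0.49 ± 0.13 (SE; edgeR adjusted p = 0.244). Mmp28, an epidermal protease and had the most CPM of these 11 genes, with 38.5 ± 5.27 and 38.2 ± 5.39 CPM (log2 fold change -0.01 ± 0.10). Of the 4 other tested genes of the chromosome 9 cluster, the second stromelysin Mmp10 had a log2 fold change of -0.37 ± 0.21, the macrophage elastase Mmp12 -0.16 ± 0.51, the neutrophil collagenase Mmp8 0.04 ± 0.47 and Mmp27 0.33 ± 0.41. The remaining tested genes had log2 fold changes of 0.48 ± 0.27 (Mmp11), 0.39 ± 0.45 (Mmp25), 0.19 ± 0.13 (Mmp17), -0.12 ± 0.20 (Mmp23) and -0.45 ± 0.27 (Mmp16). Mmp1a, Mmp1b, Mmp20, Mmp21 and Mmp24 had 7 to 62 reads over all 16 libraries and Mmp7 had 0, and these were not tested.

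**Figure D5:**
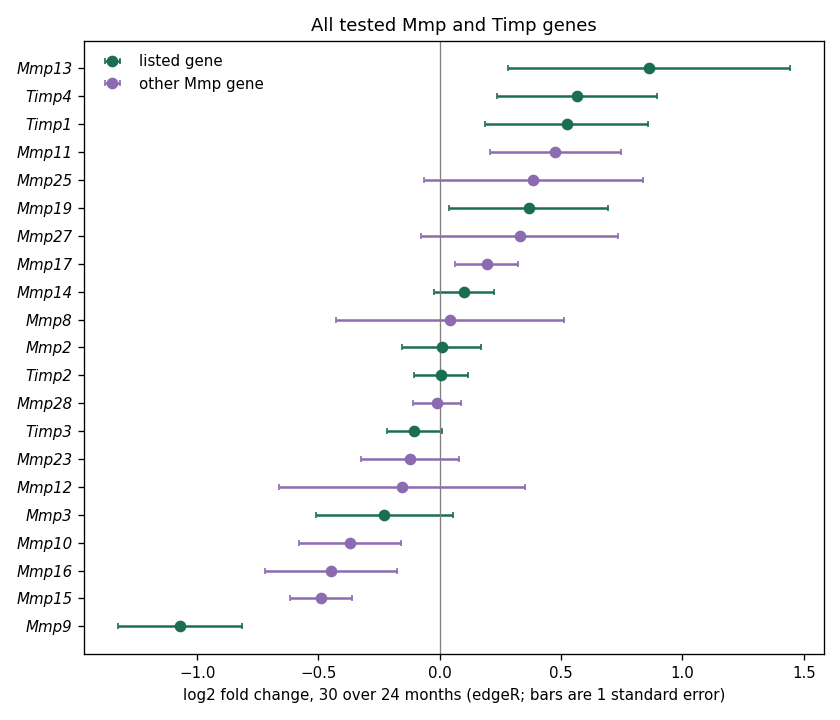
Log2 fold change at 30 over 24 months of the 10 listed genes (green) and the 11 other tested Mmp genes (purple), with bars of 1 standard error from the edgeR fit. Mmp9 lies farthest below 0 at -1.07 and Mmp13 farthest above at 0.86, with the longest bar.

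The other lists of the pathway were described by the same counts, to be read beside the 4.86% of all genes that were higher and the 7.18% that were lower at an unadjusted p under 0.05. Among 15 tested activators and anchors of metalloproteinases the median log2 fold change was 0.06, with 1 higher and 1 lower, shares near those of all genes. Without mouse 50 both counts were 0. The higher gene was Lcn2, the lipocalin that binds and stabilises Mmp9, with 3.77 ± 0.608 CPM and then 10.3 ± 12.1 (SD, n = 8; log2 fold change 0.91 ± 0.39, edgeR adjusted p = 0.393, higher in 6 of 8 mice). The lower gene was the integrin subunit Itgav (-0.13 ± 0.05, adjusted p = 0.353), and Plau, the urokinase that generates plasmin, had -0.21 ± 0.10. Other protease inhibitors had a median of 0.02 over 14 tested genes, of which 1 was lower, A2m, which encodes the broad inhibitor alpha-2-macroglobulin (-0.62 ± 0.26, adjusted p = 0.388). Tfpi2 (0.57 ± 0.32) and Pcolce (-0.20 ± 0.14) came next in that list.

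The related ADAM and ADAMTS proteases had a median log2 fold change of -0.08 over 25 tested genes, with 4 lower and 0 higher at an unadjusted p under 0.05, beside 7.18% and 4.86% of all genes. Without mouse 50, 6 of the 25 were lower at an unadjusted p under 0.05, beside 7.12% of all genes, and the median was -0.15. Adamts1, which cleaves the proteoglycans aggrecan and versican, went from 192 ± 37.2 to 125 ± 24.9 CPM (SD, n = 8) and was lower in 8 of 8 mice (log2 fold change -0.62 ± 0.12, edgeR adjusted p = 0.156). Adamts6 (-0.45 ± 0.13) and Adamts3, a procollagen processing enzyme (-0.52 ± 0.18), were lower in 7 of 8 mice each, with adjusted p of 0.284 and 0.332 in edgeR.

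The matrix substrates had the lowest median of these lists, -0.14 over 24 tested genes, of which 5 were above 0, beside 51.7% of all genes. At an unadjusted p under 0.05, 2 of the 24 were lower, a share near the 7.18% of all genes. Without mouse 50 the median was -0.23 and 10 of the 24 were lower, beside 7.12% of all genes. Fibroblast markers had a median of -0.19 with 5 of 15 above 0, or -0.32 with 1 of 15 above 0 without mouse 50. In mice 13, 14, 21, 29, 43, 50, 64 and 75 the fibroblast markers had mean log2 changes of -0.625, -0.513, 0.162, -1.051, -0.356, 1.239, -0.41 and -0.218. Those of the substrates were -0.17, -0.625, 0.143, -0.25, -0.226, 0.70, -0.599 and -0.322 in the same order. The fibroblast markers include the collagen genes Col1a1, Col1a2 and Col3a1, and the part of the fibroblasts was not tested. Col2a1, the fibrillar collagen of cartilage and a substrate of Mmp13, went from 10.2 ± 3.54 to 6.63 ± 2.65 CPM (SD, n = 8) and was lower in 8 of 8 mice (-0.64 ± 0.11, edgeR adjusted p = 0.141). Fibronectin (Fn1) was lower in 7 of 8 mice (-0.60 ± 0.21, adjusted p = 0.321), and Col7a1, the anchoring fibril collagen, had -0.24 ± 0.11. Of 15 tested cartilage markers, which include Col2a1 itself, 8 were lower at an unadjusted p under 0.05 and 0 higher, beside 7.18% and 4.86% of all genes, with summed CPM of 303 to 538 at 24 months and 228 to 395 at 30 months. Without mouse 50, 6 of the 15 were lower, beside 7.12% of all genes. The part of cartilage content in the Col2a1 value was not tested.

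Among 20 tested cytokines and growth factors that are known to induce metalloproteinases the median was 0.12. At an unadjusted p under 0.05, 1 of the 20 was higher, a share near the 4.86% of all genes, and 0 were lower, beside 7.18%. Without mouse 50 the median was 0.05, with 1 higher and 1 lower. Hbegf, a ligand of the EGF receptor in keratinocytes, had 6.79 ± 1.84 CPM at 24 months and 10.2 ± 1.67 at 30 months (SD, n = 8) and was higher in 8 of 8 mice. Its log2 fold change was 0.60 ± 0.09 (SE; edgeR adjusted p = 0.133). Osm (0.66 ± 0.32) and Cxcl1 (0.87 ± 0.44) had wide errors.

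Finally, for each of the 10 genes the 5 tested genes with the highest Pearson correlation of log2 CPM over the 16 libraries were listed as a description, with no test, since the 16 points are 8 pairs from the same mice and share their library composition. Mmp2 was closest to Cpxm1 (r = 0.963), the collagen genes Col5a1 (0.944) and Col6a1 (0.922), the pseudogene Gm21451 (0.922) and the collagen cross-linking enzyme Loxl2 (0.920). Mmp14 was closest to Jak2 (0.913), Nhsl2, Nid1 and Rrbp1 (0.899), Mmp19 to Ephb2 (0.926), Procr, Capn2, the collagen receptor Ddr2 and Sema3a (0.911), and Timp2 to Man1a (0.923), Lhfp, Gm38158, Cd302 and Cd300ld3 (0.888). Mmp3 was closest to Gm15242 (0.979), a processed pseudogene, then to Ccdc74a, Foxl2, the fibroblast marker Thy1 and Arhgap11a (0.914).

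The genes most like Mmp9 were F830045P16Rik (r = 0.940), 4921509C19Rik (0.920), Gm14147 (0.912), the class I-like gene H2-M2 (0.909) and the adenosine receptor gene Adora2b (0.878), of which the first 3 lie on chromosome 2 as Mmp9 does. Since they were chosen over both ages, a lower level at 30 months was part of the choice. F830045P16Rik had 4.90 ± 1.38 CPM and then 1.51 ± 0.745 (SD, n = 8), a log2 fold change of -1.81 ± 0.32 (edgeR adjusted p = 0.149), and was lower in 8 of 8 mice. Gm14147 (-1.43 ± 0.21, adjusted p = 0.133) and Adora2b (-0.46 ± 0.09, adjusted p = 0.167) were also lower in 8 of 8 mice, and 4921509C19Rik (-1.18 ± 0.36) and H2-M2 (-0.76 ± 0.22) in 6 of 8.

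Mmp13 was closest to BC100530 (r = 0.906), Gsdmc, Gsdmc2, Sh3bgrl3 and Stfa1 (0.865), which include a pair of gasdermins and a stefin. Timp1 was closest to vimentin, Vim (0.904), and then to 2610528A11Rik, Zfp280b, Adamts15 and Fam171a1 (0.890). Timp4 was closest to Plin4 (0.898), which coats lipid droplets and was among the fat cell markers, then to Map1lc3a, the hypoxia gene Bnip3, Prkd1 and Hp (0.882). Timp3 had the lowest correlations of the 10, from 0.895 for the pseudogene Bhmt-ps1 through Gm10785, Gm5096 and Bhmt to 0.779 for Olfr1420.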

How the data were processed

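Ear biopsies of 8 mice at 2 ages were measured by single-end RNA-seq from an unstranded kit. According to the labels and the study's methods, the authors aligned reads with TopHat to GRCm38 (mm10) and counted them per Ensembl gene with HTSeq, and they deposited raw counts, not normalized, 1 column per library. Whether counting used strand is not given in the sources used here. The table held 45706 genes, of which 45143 matched GENCODE M21 (GRCm38), which gave symbols, positions and exon lengths, and 34054 had a count. Its 5 summary lines (18.7% to 21.1% of reads per library) entered neither library sizes nor tests. The number of columns of other samples was 0.

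Counts were tested with edgeR 4.0.16 (R 4.3.3): TMM, filterByExpr, glmQLFit and glmQLFTest with the mouse as block, and Benjamini-Hochberg adjustment over 21526 genes at 0.05. The biopsies pair by animal, from the title numbers and the study's sample sheet. Deviations from the age means correlated by a median of -0.01 within mice (-0.44 to 0.36) and 0.01 between mice. CPM used TMM library sizes, RPKM divided CPM by exon length, and log2 CPM had a prior count of 0.5. Single genes were also tested by exact sign flips (256 patterns, smallest p 0.00781) and pairs of genes by exact permutation. DESeq2 1.42.0, other size factors, no filter, no block, exact age and each mouse left out were alternatives. The edgeR and permutation steps were tested on simulated data. Named were the 10 genes, all other tested Mmp genes, the 3 genes with the smallest p in each of the other lists, and the 5 nearest genes of each of the 10, of which 1 is not reported here. Cell type markers that moved beside a result were named after their values were seen. The 10 genes and the lists were chosen with earlier results of these data known.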

Additional observations from a re-analysis of the deposited data

Results flagged for a closer look

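In mouse 29 Mmp3 was far below the other mice at 30 months, at 8.41 CPM against 40.4 to 75.9 CPM. The gap to the nearest mouse was 0.713 of the range of the 8 log2 values, above the 95% critical value of Dixon's test. The within-mouse log2 change of Mmp3 in the same mouse, -2.29, was also set apart, by 0.541 of the range. These were 2 of 30 groups of 8 values examined, and chance sets apart about 1 in 20 groups, or 1.5 here. The 2 values share the same library and are not independent.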

How the results depend on the processing

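The counts of genes past the adjusted threshold depended on the model: 0 in edgeR with the mouse as a block and with any mouse left out, 3 without the replicate block and 240 in the DESeq2 Wald test, which also called 1 of the 10 genes (Mmp9, log2 fold change -1.07, adjusted p = 0.0069; Mmp13 had no adjusted p there). For Mmp9 the sign-flip test gave a mean change of -1.09 with an unadjusted exact p of 0.00781, beside an unadjusted p of 0.00171 in edgeR. The cause of the differences between the counts was not tested. Without the block, 1708 genes were higher at an unadjusted p under 0.05 in place of 1047, and the lists of other Mmp genes, activators, other inhibitors and inducers held 2, 4, 0 and 4 such genes in place of 1, 2, 1 and 1. The block ended no other call among the 10 genes. With each mouse left out in turn, all genes at an unadjusted p under 0.05 numbered 1833 to 3772, those higher 764 to 1927 (most without mouse 43) and those lower 998 to 1845 (fewest without mouse 21), and the 10 genes held 1 to 2 (2 without mouse 43, with Timp4, or mouse 64, with Mmp13).

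Of the 10 genes, Mmp9, Mmp13, Mmp19, Timp1, Timp3 and Timp4 kept their direction under all 14 alternatives. The sign turned for Mmp2 without mouse 43 (-0.03) and mouse 50 (-0.15), Mmp3 without mouse 29 (0.03), Mmp14 without mouse 50 (-0.003) and Timp2 without mouse 50 (-0.10) and mouse 75 (-0.01). Left-out ranges were -0.15 to 0.08 for Mmp2, -0.35 to 0.03 for Mmp3, -1.20 to -0.92 for Mmp9, 0.50 to 1.33 for Mmp13, -0.003 to 0.18 for Mmp14, 0.13 to 0.54 for Mmp19, 0.28 to 0.72 for Timp1, -0.096 to 0.069 for Timp2, -0.14 to -0.003 for Timp3 and 0.36 to 0.85 for Timp4.

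Pearson's r with each mouse left out lay between 0.071 and 0.821 for Timp2 with Mmp2, 0.043 and 0.796 for Timp2 with Mmp14 (both lowest without mouse 50), 0.40 and 0.98 for Mmp14 with Mmp2, 0.15 and 0.60 for Timp1 with Mmp9, 0.69 and 0.82 for Mmp3 with Mmp13, -0.065 and 0.415 for Mmp3 with Mmp9 (below 0 without mouse 29) and 0.005 and 0.70 for Mmp14 with Mmp13. With a prior count of 5, Mmp3 with Mmp13 had r = 0.69 (exact permutation p = 0.0601). Mmp13 had 7 to 89 reads per library, which limits the precision of its values, beside a spread between mice of 1.82 (SD of the log2 change). Leaving out mouse 50 was applied to the lists after the data were seen.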
